A study of Homo sapiens with 24 samples.

Results

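The genes described here encode the moving parts of a beating cilium: the axonemal dynein motors and the proteins that dock, assemble, stiffen and switch them on. They were 36 protein-coding genes, chosen by name out of the 48162 genes of the count table and followed through all 4 conditions. No threshold on a value was part of the choice, but the list was drawn up with results of the table known, so the comparison of untreated giant cells with untreated parental cells is given as a description, without p-values. Tests are given in the libraries with LCL521, which that comparison did not use. Those libraries came from the same experiments as the others. The tests are therefore not independent of the choice of the list. Of the 36 members, 32 had more than 3 counts in at least 1 library, 23 did so in every library of at least 1 condition, 19 did so in all 24 libraries, and 4 never did.

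RNA was measured in PPC1, a human prostate cancer cell line, as 4 conditions of 6 libraries each. UT was parental cells without treatment, and UT_LCL was parental cells given 5 µM LCL521 for 5 h. LCL521 is an inhibitor of acid ceramidase, a lysosomal enzyme that breaks down ceramide. PGCC were polyploid giant cancer cells, formed after 8 Gy of radiation on day 2. They were caught on a 20 micron filter at harvest on day 5. PGCC_LCL came from irradiated cultures given the same dose of LCL521 for the same time. Per the study's methods, LCL521 came before the cells were detached and filtered. The days are those of the series' design text. The study's methods name an earlier day for LCL521 and harvest, but its discussion counts collection from irradiation, which gives the same interval. All groups were of the one cell line, with no engineered allele in any of them. The giant cells are polyploid by definition, and their genome content was not analysed here. Radiation and the size selection came together in the PGCC groups, so the effects of the pair cannot be told apart.

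A motile cilium is built on a ring of microtubule doublets around a central pair. Outer dynein arms supply most of the power of the stroke, inner arms shape its waveform, and radial spokes and the central apparatus pass signals between the centre and the motors. In the body these genes are used together by multiciliated cells of the airway, oviduct and brain ventricles and by sperm, under the transcription factors FOXJ1, RFX2 and RFX3. Prostate epithelial cells are not known for motile cilia.

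Total counts lay between 14835246 and 19906601 per library, so that the floor of 3 counts used here corresponded to 0.15 to 0.208 CPM, which are counts scaled to a common library total. Replicates 4 and 5 stood apart from the other 4 in every condition. The second principal component of all genes (16.5% of the variance) placed them at -13.35 or below and the rest at 4.106 or above, while the first (55.9%) separated parental cells from PGCC. Results that rest on those replicates are given with and without them. Among 10 markers of multiciliated cells, 4 were over the floor in any UT library and 4 in any PGCC library, while 1 was over it in every UT library and 3 in every PGCC library. Their summed level was 4.36 to 12.5 CPM in UT and 4.89 to 9.92 CPM in PGCC. Most of it was CCDC78 (means of 7.43 and 4.97 CPM). ROPN1L held 3 to 12 counts in UT and 13 to 33 in PGCC, and CAPSL means of 0.487 and 0.906 CPM. The defining markers FOXJ1 (0 to 3 counts in PGCC), MCIDAS (0 to 2) and SNTN (0 in all 24 libraries) were at or near 0 there. The label of the cells was in part borne out by markers. HOXB13, a prostate homeobox gene, was at 745 CPM in UT, and the keratin genes KRT8, KRT18 and KRT19 were expressed in all groups, but KLK3, a secreted protease of prostate luminal cells, had 0 counts in all 24 libraries. Markers of sperm and testis summed to at most 0.232 CPM in UT and 1.15 CPM in PGCC, and those of leukocytes to at most 2.74 and 4.32 CPM, almost all of it PTPRC (1.17 and 3.1 CPM). The part of these in the results below was not tested. In bulk RNA, fewer cells that express a gene and less RNA per cell cannot be told apart.

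**Figure D1:**
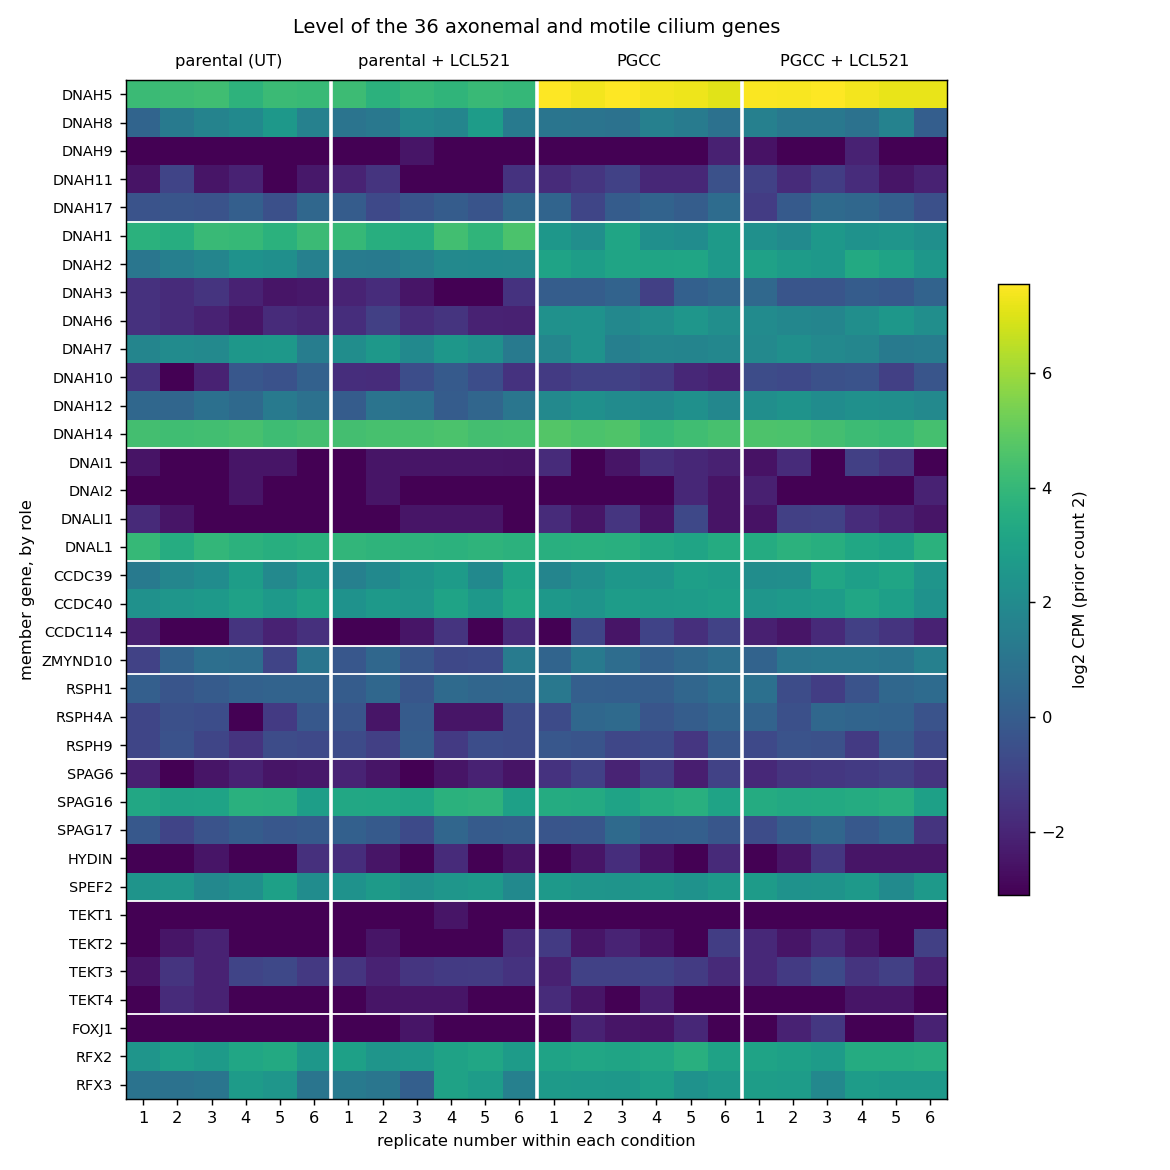
Level of each of the 36 members (rows, grouped by role) in each of the 24 libraries (columns, replicates 1 to 6 within each condition), as log2 CPM with a prior count of 2. DNAH5 is the brightest row in the PGCC columns, while most rows look alike in all 4 conditions and 13 rows, such as DNAH9, TEKT1 and FOXJ1, stay near the dark end throughout.

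The family did not move as a unit. In PGCC relative to UT, 20 of the 36 members had enough counts to be fitted, and 6 of these were past the threshold upward (DNAH2, DNAH5, DNAH6, DNAH12, RSPH4A and RFX3) and 1 downward (DNAH1). This is 7 of 20, or 35%, where 47.4% of all 13812 genes fitted were past the same threshold. The threshold, an edgeR adjusted p under 0.05, only describes PGCC against UT, since its results were known when the genes were chosen. The median log2 fold change was 0.34 over these members and -0.03 over all genes fitted. The log2 fold changes past the threshold were 4.9 ± 0.24 for DNAH6, 3.26 ± 0.11 for DNAH5, 1.34 ± 0.19 for DNAH12, 1.24 ± 0.21 for DNAH2, 1.19 ± 0.46 for RSPH4A, 0.91 ± 0.34 for RFX3 and -1.4 ± 0.20 for DNAH1 (SE, n = 6 against 6). All 6 PGCC libraries lay above all 6 UT libraries for 5 members (12.3% of all genes over the floor) and below them for 1 member (9.04%). With LCL521 in both arms, which are 12 other libraries, 21 members were fitted. Of these, 7 were called higher (DNAH2, DNAH3, DNAH5, DNAH6, DNAH12, RSPH4A and ZMYND10) and 2 lower (DNAH1 and DNAL1), beside 48.9% of all 13818 genes called in either direction. The cultures of the LCL521 pair were harvested in parallel with the others in each of 6 experiments, so neither comparison is independent of the other. With libraries paired by replicate number, 8 members were past the threshold in the first comparison (RFX2 added, beside 56.2% of all genes) and 11 in the second (RFX2 and RFX3 added, beside 56.3%). Without replicates 4 and 5 the numbers were 10, beside 54.6% of all genes, and 7, beside 52.5%.

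The filter itself favoured rises among scarce genes. DNAH6 and DNAH3 entered the LCL521 comparison only through PGCC_LCL (6 libraries over the needed CPM against 0 of UT_LCL), and RSPH4A mainly so (6 against 2), so counts over the fitted members lend no support to a rise. Of the 1307 genes with a mean under 1 CPM in UT_LCL that were fitted, 52.9% were called higher, and in the comparison without LCL521 51% of 1352 such genes were past the threshold upward. The rises of single genes are therefore best read from their libraries, as follows.

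**Figure D2:**
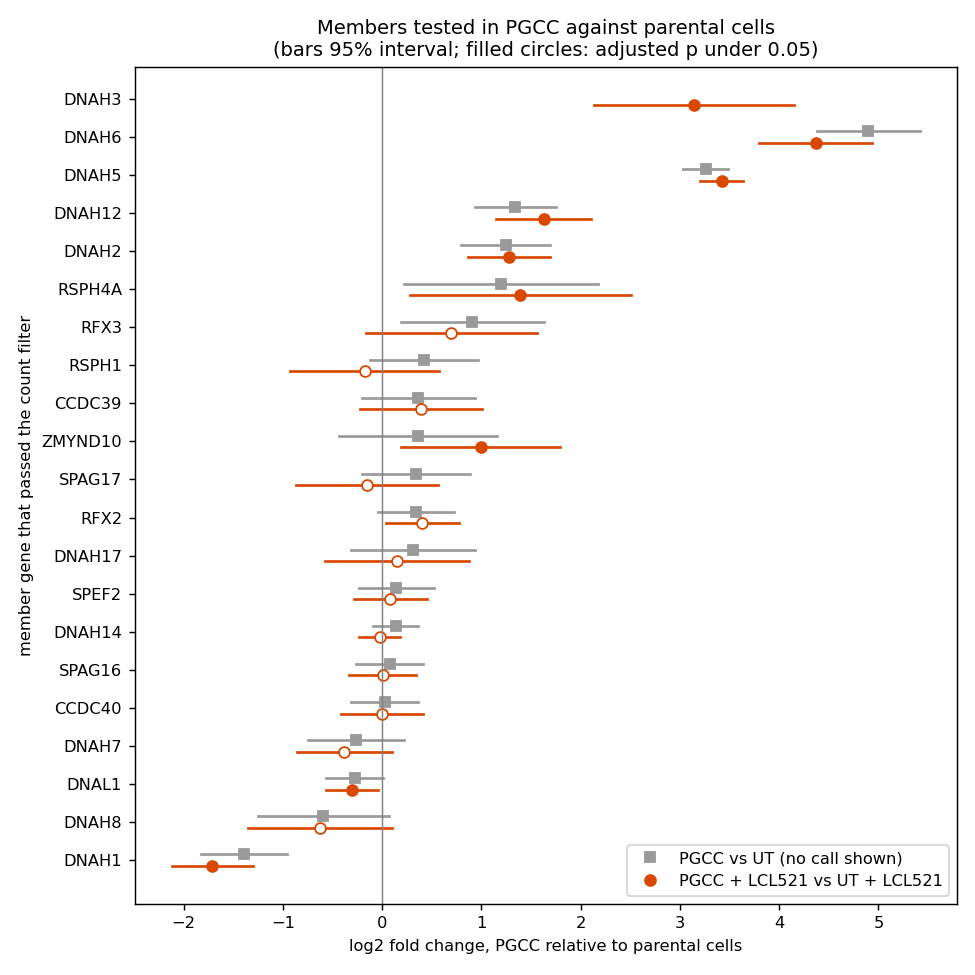
Log2 fold change (horizontal axis) of the members fitted, PGCC relative to parental cells without LCL521 (grey squares, no call shown) and with it (circles, filled where the edgeR adjusted p was under 0.05), with 95% intervals as bars. DNAH6, DNAH5 and DNAH3 lie far to the right at 3 or more on the log2 scale and DNAH1 to the left at -1.4 and -1.71, while the intervals of most other members cross 0.

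DNAH5, a motor of the outer arm and one of the genes most often mutated in primary ciliary dyskinesia, stood out in size and in abundance. It lies on chromosome 5 (hg19 chr5:13690440-13944652, minus strand). UT libraries held 13.6 to 19.6 CPM (median 18; 234 to 331 counts) and PGCC libraries 136 to 184 CPM (median 166; 2432 to 3267 counts). Every PGCC library thus lay far above every UT library, 9.57-fold on average in the fit. With LCL521, UT_LCL libraries held 13.3 to 18.5 CPM (median 16.1) and PGCC_LCL libraries 145 to 188 CPM (median 170). The log2 fold change was 3.42 ± 0.10 (SE, n = 6 against 6; edgeR quasi-likelihood test, Benjamini-Hochberg adjusted p = 5.85e-11), a 10.7-fold difference. Leaving out any 1 library kept it between 3.37 and 3.46. The groups did not overlap, as held for 12.5% of all genes over the floor in the upward direction. The only gene annotated across DNAH5 on the other strand had 0 counts in the UT and PGCC libraries, which bears on counting without strand information.

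The other outer arm motors did not share this. DNAH8, its closest counterpart in sperm, had a median of 2.95 CPM in UT (1.14 to 5.89) and 1.92 in PGCC (1.73 to 2.81). With LCL521 the medians were 2.72 and 2.12 CPM, and the log2 fold change of -0.63 (95% interval -1.35 to 0.1; edgeR adjusted p = 0.14) did not pass. DNAH17, an outer arm motor of the sperm tail, held 0.424 to 1.45 CPM across the UT and PGCC libraries, and its log2 fold change with LCL521 was 0.15 (-0.58 to 0.88; edgeR adjusted p = 0.741). DNAH9 and DNAH11, the partners of DNAH5 in airway cilia, had at most 2 and 11 counts in any library. DNAH5 therefore rose without either of its airway partners reaching 1 CPM in any library.

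Because DNAH5, DNAH6, DNAH2 and DNAH12 rose and DNAH1 fell, the stretches upstream of their starts are printed to show how these promoters differ. Each is the 250 bases before the gene start in RefSeq (GRCh38.p14), 5′ to 3′ on the strand of the gene. Capitals mark the 7-letter core of the RFX binding site, GTTGCCA, or its reverse complement TGGCAAC. The positions are chr5:13944689-13944938 (minus strand) for DNAH5, chr2:84516248-84516497 (plus) for DNAH6, chr17:7717494-7717743 (plus) for DNAH2, chr3:57544345-57544594 (minus) for DNAH12 and chr3:52316069-52316318 (plus) for DNAH1.
DNAH5: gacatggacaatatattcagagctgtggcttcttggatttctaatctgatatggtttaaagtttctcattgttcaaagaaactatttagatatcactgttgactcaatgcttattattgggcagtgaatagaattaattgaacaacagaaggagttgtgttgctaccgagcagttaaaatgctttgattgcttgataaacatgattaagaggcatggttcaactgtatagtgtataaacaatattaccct
DNAH6: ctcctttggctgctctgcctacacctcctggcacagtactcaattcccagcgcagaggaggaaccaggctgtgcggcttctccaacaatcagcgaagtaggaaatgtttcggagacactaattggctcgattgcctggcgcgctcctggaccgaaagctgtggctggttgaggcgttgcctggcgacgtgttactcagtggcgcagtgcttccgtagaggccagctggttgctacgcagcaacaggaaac
DNAH2: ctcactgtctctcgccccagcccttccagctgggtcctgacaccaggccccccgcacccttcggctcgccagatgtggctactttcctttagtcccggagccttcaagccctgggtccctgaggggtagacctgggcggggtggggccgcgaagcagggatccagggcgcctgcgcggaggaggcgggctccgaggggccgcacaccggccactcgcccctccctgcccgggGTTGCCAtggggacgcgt
DNAH12: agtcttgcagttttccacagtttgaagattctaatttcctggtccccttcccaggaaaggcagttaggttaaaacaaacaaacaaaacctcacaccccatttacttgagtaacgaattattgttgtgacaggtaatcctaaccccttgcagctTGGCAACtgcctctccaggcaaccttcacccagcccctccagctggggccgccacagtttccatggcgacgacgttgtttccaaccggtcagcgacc
DNAH1: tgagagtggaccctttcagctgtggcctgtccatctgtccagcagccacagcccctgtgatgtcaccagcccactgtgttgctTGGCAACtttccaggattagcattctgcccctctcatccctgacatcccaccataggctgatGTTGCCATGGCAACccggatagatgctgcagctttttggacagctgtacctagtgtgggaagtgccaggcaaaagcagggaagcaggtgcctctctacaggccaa
DNAH1, the member that fell, held 3 matches, at positions -167, -105 and -98 from the start, and the last pair touch end to end as a mirror-image site. DNAH12 held 1 at -97 and DNAH2 1 at -18. DNAH5 and DNAH6, the largest risers among the members fitted, held none, which says only that these letters are not in the window. Windows of 300 bases (250 before and 50 after the start) were on hand for 29 of the 36 members, 1 of them (CCDC114) under its newer symbol ODAD1. The RFX core, on either strand, was in 11 of those 29. By window it was in 12 of their 33, beside 4.08% of all 35116 such windows. The 11 were DNAH1, DNAH2, DNAH10, DNAH12, DNAI2, CCDC39, RSPH4A, RSPH9, SPAG16, TEKT1 and TEKT4. A forkhead core, TGTTTAC or GTAAACA, was in 3 of the 29 (DNAH9, SPAG16 and TEKT1). By window it was in 3 of 33, beside 3.42% of all windows. None of the sequences printed above held the forkhead core. The counts were made on hg19 and the windows are from another build, and where transcription starts in these cells was not measured.

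The inner arm held the largest relative rise. DNAH6, a single-headed inner arm motor (hg19 chr2:84743579-85046713, plus strand), had 1 to 4 counts in each UT library and 57 to 111 in each PGCC library, or medians of 0.156 and 4.59 CPM. With LCL521 the counts were 2 to 6 against 58 to 96, and the medians 0.186 and 4.17 CPM. The lowest PGCC_LCL library was well above the highest UT_LCL library, and the log2 fold change was 4.37 (95% interval 3.8 to 4.93), or 20.6-fold. Because DNAH6 passed the filter only through PGCC_LCL, the p-value is taken from the fit with no count filter, where the log2 fold change was 4.32 (edgeR adjusted p = 1.08e-10). Since the parental level rests on 20 counts over 6 libraries, near the floor, the size of that fold is loosely fixed. The genes annotated across DNAH6 had 0 or 1 counts.

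DNAH3, another single-headed motor, followed the same course at a lower level. Parental libraries held 1 to 4 counts (UT) and 0 to 4 (UT_LCL), while PGCC held 7 to 22 and PGCC_LCL 12 to 25. The groups did not overlap in either comparison. DNAH3 did not pass the filter in PGCC against UT, and with LCL521 it passed only through PGCC_LCL, with a log2 fold change of 3.14 (95% interval 2.13 to 4.15) on 10 parental counts in all. With no count filter the value was 3.1 (edgeR adjusted p = 4.74e-05). TMEM159, which overlaps DNAH3 on the other strand, had 295 to 393 counts in UT and 288 to 427 in PGCC.

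DNAH12 and DNAH2 rose from levels that were well counted in parental cells. DNAH12, a short inner arm motor, held 1.22 to 2.33 CPM in UT (median 1.51) and 3.4 to 4.69 in PGCC (median 3.87). With LCL521 the medians were 1.46 and 4.39 CPM, and the log2 fold change was 1.63 ± 0.22 (SE, n = 6 against 6; edgeR adjusted p = 3.93e-05). DNAH2, a heavy chain of the inner arm that has a pair of heads, held 2.02 to 4.88 CPM in UT (median 3.01) and 5.96 to 8.78 in PGCC (median 8.41). With LCL521 the medians were 3.26 and 7.16 CPM, and the log2 fold change was 1.27 ± 0.19 (SE, n = 6 against 6; edgeR adjusted p = 8.84e-05), 2.42-fold. For both genes no PGCC library fell within the parental range, with or without LCL521.

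DNAH1 went the other way. This motor, whose loss is known to disrupt the sperm tail, held 11.5 to 18 CPM in UT (median 14.6) and 4.09 to 8.85 in PGCC (median 5.05). With LCL521 the medians were 15.4 and 4.79 CPM, and all 6 PGCC_LCL libraries (3.92 to 5.79) were below all 6 UT_LCL libraries (11.3 to 23.3). The log2 fold change was -1.71 ± 0.19 (SE, n = 6 against 6; edgeR adjusted p = 5.33e-06). A downward separation of that kind held for 9.66% of all genes over the floor.

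The exact permutation test over all 924 divisions of 12 libraries gave its smallest possible p, 0.00216 (two-sided, not adjusted), for 8 members in the LCL521 pair: DNAH2, DNAH3, DNAH5, DNAH6, DNAH12 and SPAG6, which were higher in 6 of 6 same-numbered pairs, and DNAH1 and DNAL1, which were lower in 6 of 6. SPAG6, a central apparatus protein, was at 0 to 2 counts in parental cells with LCL521 and 3 to 6 in PGCC_LCL, around the floor, and did not pass the filter. With no filter its log2 fold change was 1.76 (edgeR adjusted p = 0.0259). Full separation of this kind held for 12.5% (higher) and 9.66% (lower) of all genes over the floor, against 6 and 2 of the 32 members over it.

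**Figure D3:**
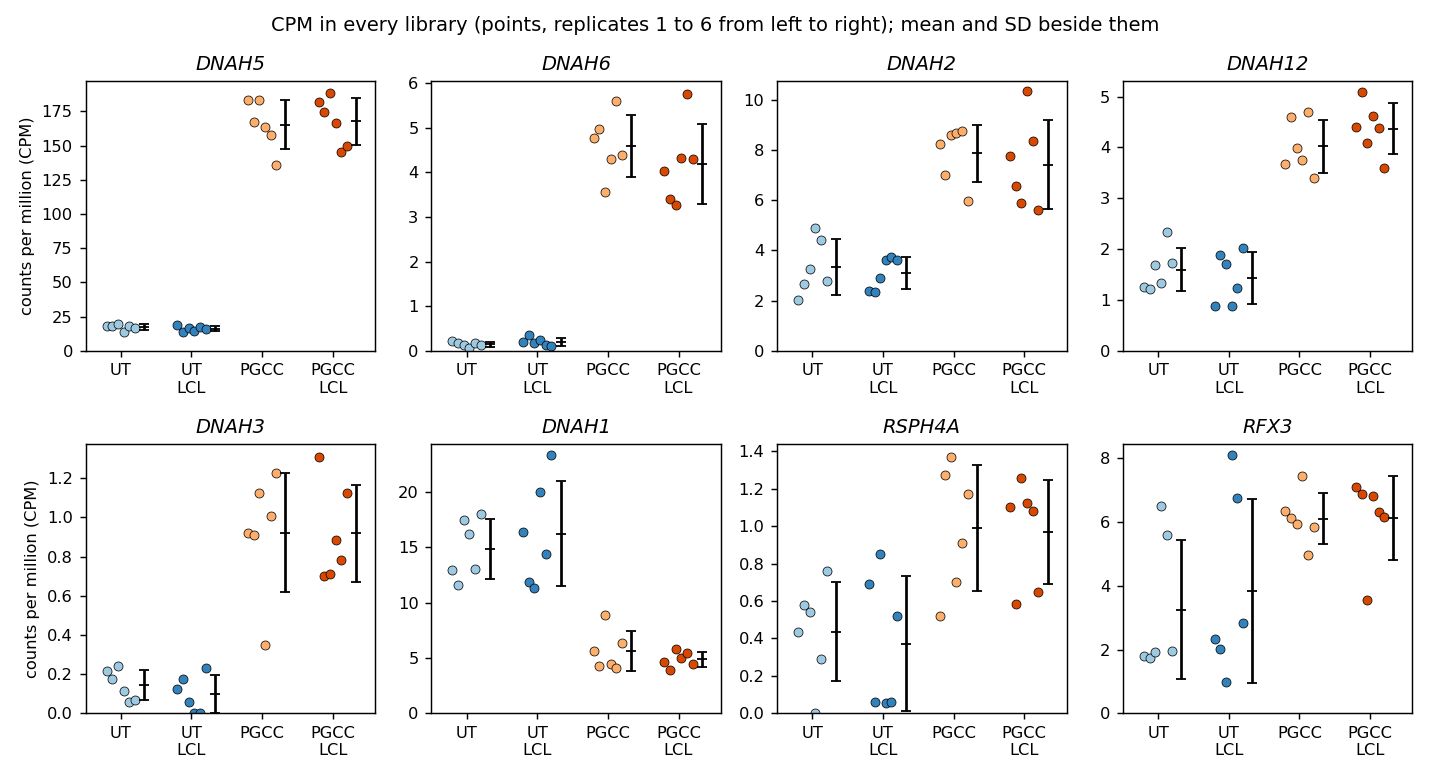
CPM (vertical axes, each from 0) of 8 members in every library of the 4 conditions, one point per library with the mean and SD beside them. For DNAH5, DNAH6, DNAH2, DNAH12 and DNAH3 all PGCC points lie above all parental points, for DNAH1 below them, and for RSPH4A and RFX3 the groups overlap.

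The remaining inner arm motors differed little or were scarce. DNAH14, the heavy chain gene with the highest level per kb in UT, had medians of 20.4 CPM in UT, 21.6 in UT_LCL, 22.6 in PGCC and 21.1 in PGCC_LCL. Its log2 fold change with LCL521 was -0.03 (95% interval -0.24 to 0.18). In PGCC it split by replicate, at 17.54 to 19.42 CPM in replicates 4 and 5 against 21.83 to 26.3 in the others. In PGCC_LCL the ranges were 17.48 to 18.09 against 20.81 to 23.64 CPM. On the log2 CPM scale PGCC_LCL differed from UT_LCL by 0.06 in replicates 1, 2, 3 and 6 and by -0.297 in replicates 4 and 5. DNAH7 had medians of 3.81 CPM in UT and 3.3 in PGCC, and its log2 fold change with LCL521 was -0.38 (-0.86 to 0.1; edgeR adjusted p = 0.176). DNAH10, the partner of DNAH2 in the same arm in cilia, held 0 to 15 counts in UT and 2 to 6 in PGCC, too few to be fitted in that comparison.

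Per kb of gene length, which allows genes to be set side by side, the 13 heavy chain genes summed to 4.77 ± 0.33 CPM per kb in UT and 14.5 ± 1.4 in PGCC (SD, n = 6 each), and to 4.87 ± 0.35 and 14.5 ± 1.2 with LCL521. Without DNAH5 the sums were 3.66 ± 0.39 and 3.95 ± 0.29, and with LCL521 3.85 ± 0.37 and 3.77 ± 0.21. Nearly all of the difference in the sum was thus DNAH5. In UT the order by level was DNAH14 (1.47 ± 0.07 CPM per kb), then DNAH1 (1.12 ± 0.20) and DNAH5 (1.11 ± 0.13), which did not differ beyond their spread, then DNAH7 (0.337 ± 0.111). In PGCC it was DNAH5 (10.6 ± 1.2), DNAH14 (1.61 ± 0.24), DNAH2 (0.527 ± 0.076), and then DNAH1 (0.422 ± 0.136) and DNAH12 (0.421 ± 0.055), which again lay within each other's spread. The share of DNAH5 in the sum rose from 17.4 to 26.7% in UT libraries to 69.4 to 74.8% in PGCC libraries, while that of DNAH1 went from 19.5 to 27.8% to 2.19 to 4.16%.

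**Figure D4:**
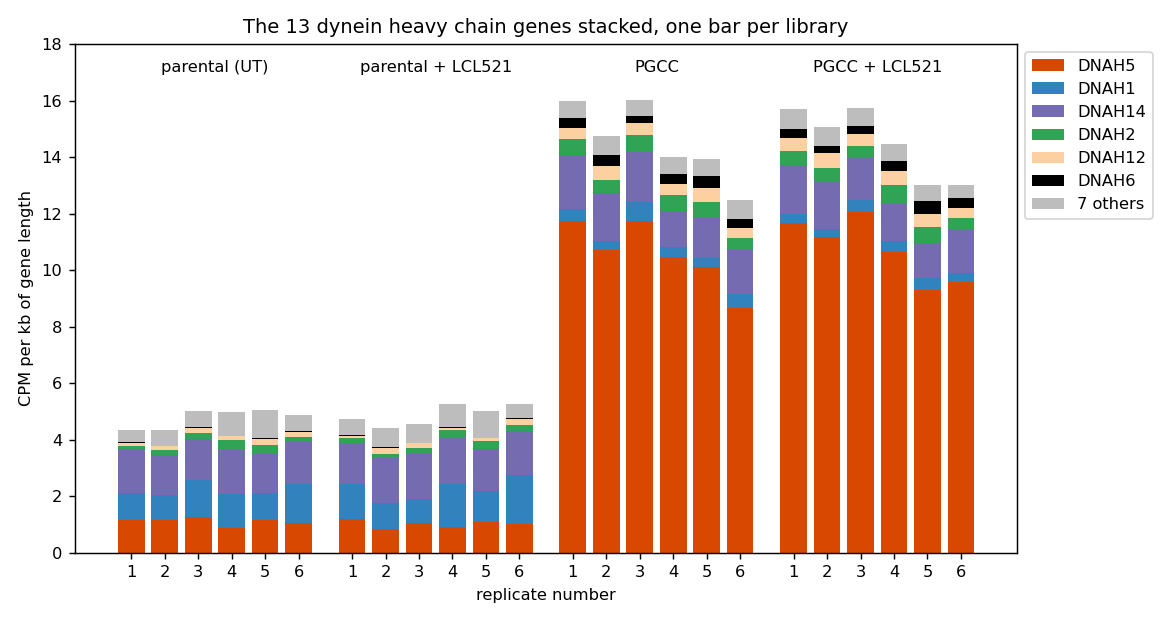
CPM per kb of gene length of the 13 dynein heavy chain genes, stacked in one bar for each of the 24 libraries (axis from 0). Bars of PGCC reach 12.5 to 16 and those of UT 4.34 to 5.04; the DNAH5 segment makes up most of the PGCC bars, and the rest of the bar is of like height in all conditions.

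The partners that turn heavy chains into arms were scarce or differed little. DNAI1 and DNAI2, the intermediate chains of the outer arm, had at most 6 and 3 counts in any library. DNAI1 summed to 3 counts in UT and 13 in PGCC, and to 5 and 14 with LCL521. DNALI1, a light intermediate chain of the inner arm, had at most 9 counts. In CPM it was higher in 6 of 6 pairs in both comparisons. In raw counts, however, UT and PGCC were equal in replicate 1 (3 counts each) and replicate 2 (1 count each), so those pairs differed only through library scaling. The sums were 4 counts in UT and 19 in PGCC, and 3 and 20 with LCL521. It did not pass the filter, and with no filter its log2 fold change in the LCL521 pair was 2.39 (edgeR adjusted p = 0.0268). DNAL1, a light chain of the outer arm, was the member with the highest level per kb in UT (5.82 ± 0.86 CPM per kb, SD, n = 6). It held 13.1 to 14.9 CPM in UT_LCL (median 13.9) and 8.29 to 13.1 in PGCC_LCL (median 11.2). These ranges only just failed to overlap. On the log2 CPM scale PGCC_LCL differed from UT_LCL by -0.217 in replicates 1, 2, 3 and 6 and by -0.612 in replicates 4 and 5. The log2 fold change was -0.31 (95% interval -0.57 to -0.05; edgeR adjusted p = 0.0491), and the call was lost on leaving out any 1 library other than UT_LCL replicate 6 and PGCC_LCL replicates 2 and 6 (adjusted p up to 0.103). CCDC39 and CCDC40, which together form the ruler that spaces arms and spokes along the doublet, had log2 fold changes of 0.39 (-0.22 to 1.01) and 0 (-0.42 to 0.41) with LCL521. FXR1 and TTC14 overlap CCDC39 on the other strand and had 2481 to 4270 and 488 to 805 counts in UT, beside 43 to 122 of CCDC39. CCDC114, a subunit of the outer arm docking complex, had at most 8 counts.

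ZMYND10, which helps to preassemble arms in the cytoplasm, overlapped between groups. UT_LCL libraries held 0.465 to 2.42 CPM (median 0.742) and PGCC_LCL libraries 1.1 to 2.78 (median 2.06). The log2 fold change of 0.99 (95% interval 0.19 to 1.79; edgeR adjusted p = 0.0397) passed, but it did so on leaving out 1 library only for PGCC_LCL replicate 1 and UT_LCL replicate 6, the parental library with the highest value (0.00145 without it). Without replicates 4 and 5 it was 0.65 (adjusted p = 0.195). In PGCC against UT the medians were 1.4 and 1.31 CPM.

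Of the radial spoke head proteins, RSPH4A was higher in PGCC in 6 of 6 pairs in both comparisons, with overlapping groups. UT libraries held 0 to 11 counts (median 0.489 CPM) and PGCC libraries 9 to 22 (median 1.04 CPM). With LCL521 the counts were 1 to 14 and 10 to 23, and the log2 fold change was 1.39 (95% interval 0.28 to 2.5; edgeR adjusted p = 0.038). RSPH4A passed the filter mainly through PGCC_LCL, and with no count filter the value was 1.35 (edgeR adjusted p = 0.0428). The call of the filtered fit was lost without UT_LCL replicate 2, 4 or 5 or PGCC_LCL replicate 1, 3, 4 or 5 (adjusted p up to 0.0756). Without replicates 4 and 5 together the value was 0.8 (adjusted p = 0.2). The lowest parental libraries were replicates 4 and 5 of UT (0 and 5 counts) and replicates 2, 4 and 5 of UT_LCL (1 count each). RSPH1 had medians of 1.01 CPM in UT and 1.09 in PGCC, and a log2 fold change with LCL521 of -0.18 (-0.93 to 0.58). RSPH9 held 4 to 15 counts in every library, too few to be fitted between PGCC and parental cells, and is overlapped by MRPS18A (363 to 525 counts in UT).

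Of the central apparatus, 3 members passed the filter and none of these was called. SPAG16, at 8.92 CPM in UT and 10.7 in PGCC (medians), had a log2 fold change with LCL521 of 0 (-0.33 to 0.34), SPEF2 one of 0.08 (-0.28 to 0.45) and SPAG17 one of -0.15 (-0.87 to 0.56). SPAG17 held only 4 to 22 counts per library, and WDR3, which overlaps it, held 2046 to 3591 in UT. SPAG6, with at most 7 counts in any library, was the central apparatus member whose groups separated in the LCL521 pair. HYDIN, which has a near-identical copy elsewhere in the genome so that its reads may have been split, had at most 5 counts. Tektins, filaments of the doublet wall, were all but silent: TEKT1 had 1 count in all 24 libraries, TEKT2, TEKT3 and TEKT4 had at most 6, 9 and 3 in any library.

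The transcription factors differed among themselves. FOXJ1, the master regulator of motile cilia, had 0 counts in every UT library, 0 to 1 in UT_LCL, 0 to 3 in PGCC and 0 to 5 in PGCC_LCL, so the PGCC groups too were at or near the floor. RFX2 and RFX3 bind the promoters of cilium genes and were both expressed throughout. RFX2 had medians of 6.9 CPM in UT, 7.09 in UT_LCL, 8.9 in PGCC and 9.57 in PGCC_LCL, higher in 6 of 6 pairs in each comparison. Its log2 fold change with LCL521 was 0.4 (95% interval 0.04 to 0.77; edgeR adjusted p = 0.0617), and 0.4 with adjusted p = 0.016 in the fit that paired libraries by replicate number.

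RFX3 depended on the replicate. In UT it was at 5.6 to 6.5 CPM in replicates 4 and 5 and at 1.74 to 1.94 in the other 4, and in UT_LCL at 6.74 to 8.08 against 0.971 to 2.82. PGCC showed no such split, at 4.94 to 7.42 and 5.85 to 6.33 CPM. In the LCL521 pair the log2 fold change was 0.69 (95% interval -0.16 to 1.56; edgeR adjusted p = 0.168) over all replicates, 0.94 (adjusted p = 0.0284) with pairing by replicate number, and 1.57 (adjusted p = 0.000691) without replicates 4 and 5. On the log2 CPM scale PGCC_LCL exceeded UT_LCL by 1.53 in replicates 1, 2, 3 and 6 and by -0.17 in replicates 4 and 5. In the UT libraries the same replicates held DNAH7 at 5.75 to 5.95 CPM against 2.56 to 4, and DNAH8 at 3.77 to 5.89 against 1.14 to 3.07. In UT_LCL these ranges overlapped, at 4.6 to 5.64 against 2.36 to 5.9 CPM for DNAH7 and 3.2 to 6.87 against 1.89 to 3.7 for DNAH8. SPAG16 and RFX2 split in both parental groups. SPAG16 in replicates 4 and 5 was at 12.3 to 12.48 against 7.268 to 9.529 CPM in UT, and at 13.03 to 13.55 against 7.647 to 9.637 in UT_LCL. RFX2 was at 9.23 to 10.32 against 5.391 to 7.484 CPM in UT, and at 8.141 to 9.012 against 5.425 to 7.559 in UT_LCL. The part in this of what sets replicates 4 and 5 apart across all genes was not tested.

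**Figure D5:**
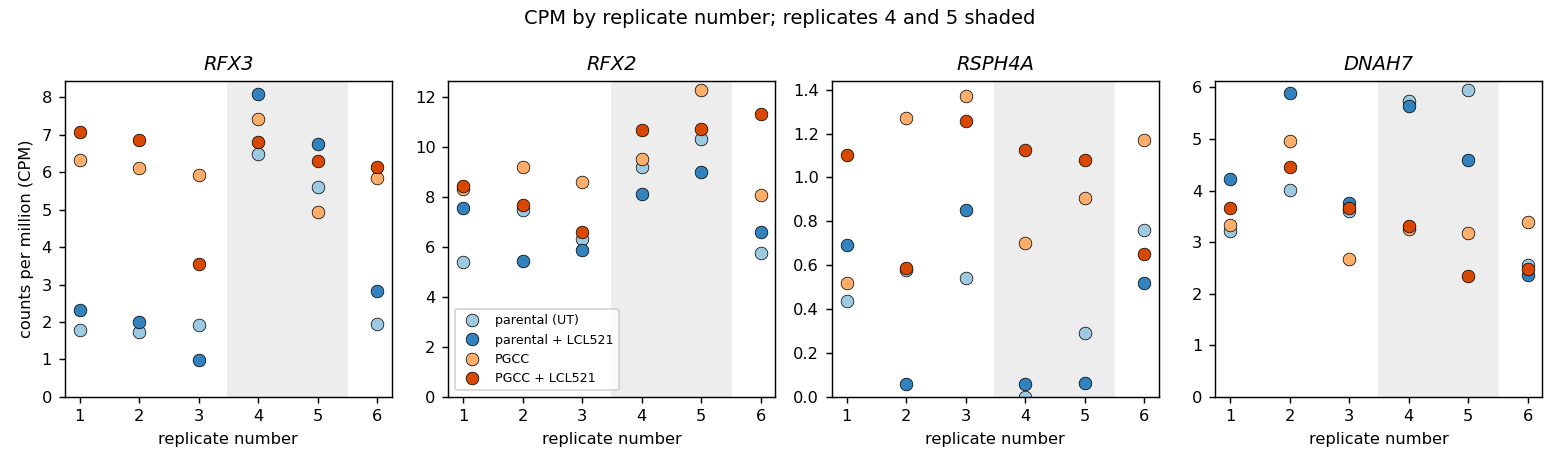
CPM (vertical axes from 0) of RFX3, RFX2, RSPH4A and DNAH7 by replicate number, with one point for each of the 4 conditions and replicates 4 and 5 shaded. Parental points of RFX3 rise from below 3 CPM to above 5 in the shaded replicates, those of RSPH4A are low there, and PGCC points of RFX3 stay between 3.55 and 7.42 CPM throughout.

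A 5 h exposure to LCL521 called no member. In parental cells 0 of 18 members fitted were called, as were 0 of all 13277 genes (0% called; edgeR, 71 genes at an unadjusted p under 0.05 and 0 genes called by DESeq2). Member log2 fold changes lay between -0.16 (ZMYND10) and 0.32 (SPAG17), with 0 members at an unadjusted p under 0.05. In PGCC 0 of 22 members were called, beside 0.00707% of 14151 genes (1 gene; 218 at an unadjusted p under 0.05; DESeq2 called 6 genes and 0 members). Pairing by replicate number raised the calls over all genes to 0.866% in parental cells and 1.65% in PGCC, with 0 members among them in either. No member separated the groups fully in either population. Over all genes 0.0164% were higher and 0.011% lower in every library in parental cells, and 0.0539% and 0.0245% in PGCC. For DNAH5 the log2 fold changes by LCL521 were -0.12 (95% interval -0.36 to 0.13) in parental cells and 0.02 (-0.15 to 0.2) in PGCC. The difference of the LCL521 effects between PGCC and parental cells was 0.14 (-0.14 to 0.43) for DNAH5, and 0 of 23 members and 0 of 14555 genes were called for it (edgeR, 60 genes at an unadjusted p under 0.05). DNAH10 passed the filter only for that difference, where its value was 1.17 (-0.36 to 2.7). It held 2 to 6 counts in PGCC and 6 to 12 in PGCC_LCL. PGCC_LCL was higher in 6 of 6 pairs (exact permutation test, two-sided, p = 0.00649, not adjusted for the 36 members looked at), and with no count filter its edgeR adjusted p was 0.851. CCDC92, with 342 to 607 counts in PGCC, overlaps it on the other strand.

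Genes that work beside the members were read from lists of the same machinery. Of further motile axoneme genes, 22 were fitted in PGCC against UT, of which 3 were past the threshold upward and 4 downward, or 13.6% and 18.2% (median -0.04, against -0.03 over all genes). EFHC2, a protein of the doublet's inner surface, went from 0.257 ± 0.245 to 0.931 ± 0.329 CPM (SD, n = 6 each) and ROPN1L, a radial spoke protein, from 0.435 ± 0.237 to 1.33 ± 0.50. AK8, an adenylate kinase, went from 1.58 ± 0.57 to 0.787 ± 0.374 CPM and MORN2 from 16.7 ± 1.3 to 10.8 ± 2.0. With LCL521, 4 of 20 were called higher and 5 lower (edgeR), or 20% and 25%, beside 25% and 23.9% of all genes.

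Preassembly factors had 12 genes fitted, 1 past the threshold upward and 2 downward, or 8.33% and 16.7% beside 23.1% and 24.3% of all genes (25% and 33.3% with LCL521). DNAAF1, needed to build arms in the cytoplasm, went from 0.24 ± 0.125 to 1.27 ± 0.16 CPM. DNAAF2, which has the same task, went from 51.7 ± 4.2 to 43.4 ± 4.1 CPM, and RUVBL1, an ATPase that serves many complexes, from 164.5 ± 8.7 to 138.7 ± 12.7. Among regulators of multiciliation 10 were fitted, 1 upward and 3 downward, or 10% and 30% (10% and 40% with LCL521). NEK10, a kinase of ciliated airway cells, went from 0.811 ± 0.062 to 6.57 ± 2.38 CPM. E2F5, an E2F factor that works with the multiciliation regulators MCIDAS and GMNC, went from 24.5 ± 2.0 to 11.1 ± 1.9 CPM and E2F4 from 152 ± 16 to 111.5 ± 8.1.

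Of the intraflagellar transport and BBSome genes, which serve motile and other cilia alike, 34 were fitted, 4 past the threshold upward and 17 downward, or 11.8% and 50%, beside 23.1% and 24.3% of all genes, with a median of -0.42. IFT43 went from 28.1 ± 3.8 to 13.6 ± 1.2 CPM and CLUAP1 from 20.7 ± 3.7 to 10.6 ± 2.1, while HSPB11 went from 11.1 ± 1.4 to 23.7 ± 4.2 and TTC21B from 17.9 ± 4.6 to 28.8 ± 2.6. With LCL521 the same list had 4 genes called higher and 16 lower of 34 (edgeR), with a median of -0.38. Genes of the transition zone and basal body numbered 26 fitted, 5 upward and 7 downward, or 19.2% and 26.9% (15.4% and 34.6% with LCL521). FBF1 went from 3.26 ± 1.17 to 7.18 ± 1.14 CPM and SCLT1 from 6.41 ± 0.97 to 11 ± 1.3, both parts of the fibres that anchor the basal body. CC2D2A went from 33.1 ± 5.9 to 14.9 ± 1.0 CPM and TMEM67 from 19.8 ± 5.7 to 9.72 ± 1.56, both parts of the gate at the cilium's base. Cytoplasmic dyneins, the cargo motor of the cell body and the motor of retrograde intraflagellar transport, had 15 subunits fitted, 2 upward and 2 downward, or 13.3% each (13.3% and 20% with LCL521). DYNC1I1 went from 0.889 ± 0.439 to 4.11 ± 0.76 CPM and DYNLT3 from 21.9 ± 2.9 to 45 ± 5.5, whereas WDR60, a subunit of the intraflagellar motor, went from 23.4 ± 4.3 to 14.1 ± 3.2 and DYNC1I2 from 70.7 ± 7.7 to 59.3 ± 5.6.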

How the data were processed

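The authors deposited raw read counts per gene for 24 libraries, not normalized, with gene lengths, coordinates and symbols. Per the labels and the study's methods, reads were aligned with STAR to hg19 and counted with HTSeq; annotation release and strand of counting are not given in the sources used here, so counts of overlapping genes are uncertain. Members and gene lists were chosen with earlier results of these data known. The unit counts were fitted in R 4.3.3 with edgeR 4.0.16: filterByExpr (minimum count 10, total 15), TMM, the quasi-likelihood test on the 12 libraries of each comparison (24 for the interaction) and Benjamini-Hochberg adjustment over all genes fitted, at 0.05. CPM are on TMM-scaled totals, and log2 CPM carry a prior count of 2. Total counts of 14835246 to 19906601 set the precision; floors and intervals cover counting error or the spread between these libraries only. DESeq2 1.42.0 and limma 3.58.1 (voom), other scalings and filters, a gene length offset, the replicate block and leaving out libraries were tried. Steps were tested on simulated data.

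Members were described in full from a mean of 0.5 CPM in any condition or past the threshold in PGCC against UT, and from each further list up to 2 rises and 2 falls were named. Per the series' design text all conditions were harvested in parallel in each of 6 independent experiments, and the labels number the replicates 1 to 6. Same-numbered libraries deviated together in all 6 pairs of each comparison (correlations of deviations from group means 0.237 to 0.412 in PGCC against UT and 0.171 to 0.444 in the LCL521 pair), so the numbers pair the libraries; the stated methods used no block. Libraries of 1 condition differed by more than counting noise. Promoter windows are from RefSeq, GRCh38.p14.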

Additional observations from a re-analysis of the deposited data

Results flagged for a closer look

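Among 92 groups of 6 libraries (member by condition) looked at for a single distant library, 5 had one, and chance gives about 1 in 20 such groups. DNAH3 was at 0.351 CPM (7 counts) in PGCC replicate 4, where the nearest other PGCC library was at 0.909. DNAH7 was at 4.97 CPM in PGCC replicate 2, the nearest at 3.4. DNAH8 was at 6.87 CPM in UT_LCL replicate 5, the nearest at 3.7. RFX2 was at 12.3 CPM in PGCC replicate 5, the nearest at 9.52. RFX3 was at 3.55 CPM in PGCC_LCL replicate 3, the nearest at 6.14. Of these, 3 are in replicates 4 or 5, which stood apart across all genes.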

How the results depend on the processing

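In the LCL521 pair DNAH1, DNAH2, DNAH3, DNAH5, DNAH6 and DNAH12 kept direction and call under every alternative run that could fit them (at least 10 counts in every library could not fit DNAH3 or DNAH6). With the replicate block, members past the threshold went from 7 to 8 in PGCC against UT (RFX2 added). Members called in the LCL521 pair went from 9 to 11 (RFX2 and RFX3 added). The block moved no other member across the threshold. Alternatives chosen after seeing the data were the replicate block without replicates 4 and 5, which gave 11 members in PGCC against UT, and the replicate block with no filter. A filter of at least 10 counts in every library gave 5 members in the LCL521 pair, with fewer genes tested. Leaving out 1 library gave 5 to 8 members in PGCC against UT and 6 to 10 in the LCL521 pair. DNAH7 turned from -0.27 to 0.12 in PGCC against UT without replicates 4 and 5 (0.11 with the replicate block as well). CCDC40, at 0.02, ranged from -0.058 to 0.095 on leaving out 1 library. Neither was past the threshold. Over all genes, UT_LCL against UT had 0 calls, but 115 with the replicate block, 234 with a gene length offset as well, 3 with the block without replicates 4 and 5, and 337 with the block and no filter. PGCC_LCL vs PGCC had 1 call, but 234, 260, 129 and 376 under those, 6 with DESeq2, 0 with limma-voom, with all 24 libraries in one fit and without replicates 4 and 5, and 0 to 1 on leaving out 1 library. No member was called by LCL521 under any alternative run. Over single genes and alternatives, 823 values kept direction and call, 55 lost a call, 23 gained one and 6 changed sign. The cause of these moves was not tested. Depth limits members under about 10 counts per library, which could not be fitted.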
